A study of Drosophila melanogaster with 4 samples.

Results

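The sites of the zinc finger protein DREF on the left arm of chromosome 2 (2L) of Drosophila melanogaster were examined in Kc167 cells, a cell line of embryonic origin. The members were all peaks that the authors' list for total cells places on 2L, 215 of the 1937 peaks of that list. To these were added the 2L peaks of the list for mitotic cells, 123 of 1113, whether or not they overlapped a total peak. The rule uses position alone, but the arm was singled out with its low peak density already known. Of these, 122 fell on a total peak and 1 stood alone, so that 216 sites were described in all.

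The peaks came from chromatin immunoprecipitation and sequencing of Kc167 cells, grown in serum-free medium and fixed with formaldehyde, with a rabbit polyclonal antibody to DREF. The labels name 2 libraries of total cells and 2 of mitotic cells, and give no genotype or treatment that sets them apart. The sources used here do not give how the mitotic cells were collected, so whether any agent was used for it is not known. Each condition is represented by 1 deposited list without values per library, so no spread between replicates could be measured and no test between the conditions was made. Depth is unknown, because the lists hold a position and a score per peak and no read counts.

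DREF is a sequence-specific factor with a zinc finger of the BED type. It binds the DNA replication-related element (DRE), a short palindromic element found close to the start sites of many genes for DNA replication, cell growth and other tasks of dividing cells. DRE sites are also frequent among the housekeeping promoters that lie at the borders of chromatin domains, where other insulator proteins of the fly bind, and the submitters count DREF itself among the insulator proteins. During mitosis most sequence-specific factors leave the condensed chromosomes to some degree, and sites that stay bound are often called bookmarked.

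Coordinates are those of the lists, and the first base of a sequence is position 1. The lists name their sequences as genome Release 5 does, in which position 1 of 2L is the telomere-near end and the highest positions are centromere-near. A genome sequence and an annotation of that build were not used here, so no peak is assigned to a gene, exon or intron and no bases are shown. The deposited score has no stated unit, and scores are compared within a list unless the text names both lists.

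DREF peaks were spread over the whole arm, with no full 1-Mb bin empty in either list. The total peaks ran from 71881 to 22354763, and the last 1-Mb bin, which was incomplete, was left out of the counts per bin. The telomere-near bin held the most sites, 21 total and 13 mitotic peaks. The bin at 19000001 to 20000000 had 17 total and 10 mitotic peaks. The bins at 6000001 to 7000000 and 20000001 to 21000000 had 16 total peaks each, with 10 and 6 mitotic peaks. The emptiest bin was near the middle of the arm, at 9000001 to 10000000, with 3 total peaks and 1 mitotic peak. The next bin, at 10000001 to 11000000, held 6 total peaks but again 1 mitotic peak. Over the 22 full bins the mean was 9.64 ± 4.63 total peaks (SD over bins) and 5.50 ± 3.04 mitotic peaks. The 3 densest bins together held 54 peaks, 25.1% of the total peaks of the arm.

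**Figure D1:**
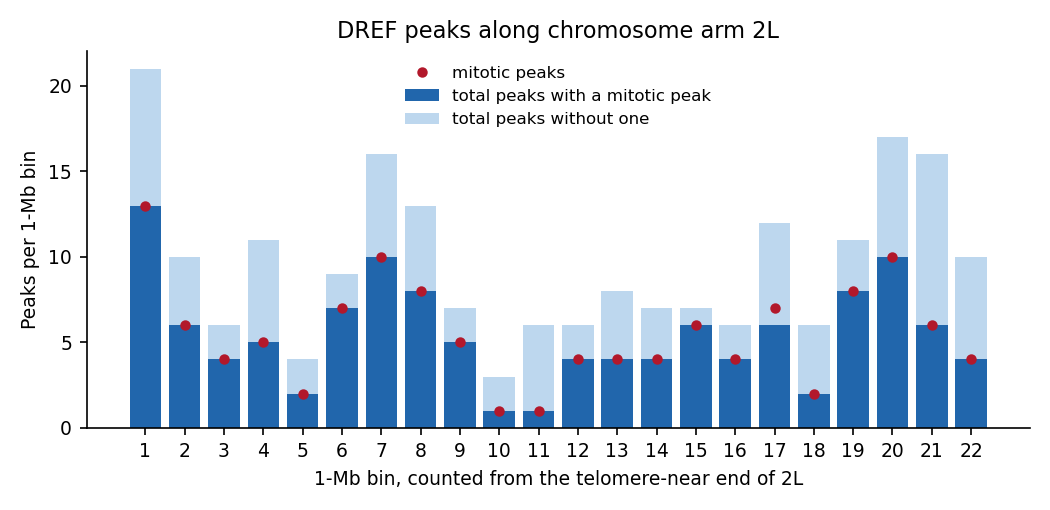
Number of DREF peaks (vertical axis) in each full 1-Mb bin of 2L, numbered from the telomere-near end (horizontal axis). Bars give total peaks, dark where a mitotic peak overlaps and light where none does, and red points give mitotic peaks; the first bin reaches 21 total peaks and the tenth holds 3.

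Counted in 5-Mb windows from the telomere, the middle of the arm was the thinnest part for total peaks. Near the centromere the last window was taken to end at the last peak, so that any sequence beyond it is not in the denominator. Its density is therefore an upper value, and its rank among the windows is not settled. The first window had 52 total peaks (10.4 per Mb, exact Poisson 95% interval 7.77 to 13.6). The window at 5000001 to 10000000 had 48 (9.60 per Mb, 7.08 to 12.7). The middle window, at 10000001 to 15000000, had 34 (6.80 per Mb, 4.71 to 9.50). The next had 52 (10.4 per Mb). The last stretch, 2.35 Mb from 20000001 to the last peak, had 29 (12.3 per Mb, 8.25 to 17.7). All 5 intervals overlap one another, and they hold counting error alone, with peaks taken as independent. For mitotic peaks the values were 6.0, 6.20, 3.80, 6.20 and 5.10 peaks per Mb from telomere to centromere. The intervals were 4.05 to 8.57 in the first window, 2.29 to 5.93 in the middle and 2.63 to 8.90 in the last. Those of all windows overlap one another, so the order in this list is within counting error. The middle window was thus the lowest in both lists. The centromere-near stretch came highest in total peaks with an end point that raises its density, and next to lowest in mitotic peaks.

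Empty stretches made up much of the arm. The longest lay at 8889503 to 9887720, 998 kb without a peak in either list, bordered by peaks with total scores of 5.95 and 8.24 that both had a mitotic peak. The next, of 746 kb, lay at 15505220 to 16251221. It began just beyond one of the strongest sites of the arm, the peak at 15498439 to 15499527 (total score 14.05), which a weak neighbour with a score of 4.02 followed after 4.74 kb. The other 3 of the 5 longest lay at 16816758 to 17383694 (567 kb), 4463983 to 5000978 (537 kb) and 1151277 to 1678885 (528 kb). Together the 5 longest gaps took up 3.38 Mb, 15.1% of the covered arm. Gaps over 200 kb numbered 29 and took up 48.9%. They fell in every window, with 4, 6, 9, 6 and 4 from telomere to centromere by the peak on their telomere side. The last window was 2.35 Mb long and the others 5 Mb, so its count is not comparable with theirs.

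In the mitotic list the open stretches were longer, as the list has fewer peaks. Its longest gap was the same stretch of 998 kb. The next was 968 kb at 16816665 to 17784357 and held 4 total peaks, none of which had a mitotic peak. Another, of 905 kb at 10201499 to 11106306, held 5 such total peaks. The median distance between neighbouring mitotic peaks was 122 kb (95% interval of the median from binomial ranks, 82.4 to 161 kb).

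The median gap between neighbouring total peaks on 2L was 50.3 kb (95% interval 39.6 to 72.0 kb), with quartiles of 22.7 and 136 kb. Neighbours under 10 kb apart formed 24 groups, which held 53 peaks, 24.7% of the total peaks on the arm. Most of these groups, 20, were pairs, 3 had 3 peaks and 1 had 4. The group of 4 lay at 19113872 to 19134205 with scores of 3.34 to 6.25, and 1 of its peaks had a mitotic peak. The groups of 3 lay at 820861 to 833921, 4454004 to 4463982 and 20093423 to 20107259, with 2, 1 and 1 peaks shared and highest scores of 8.16, 9.31 and 10.14. Among the pairs the most compact lay at 6068595 to 6071511, a span of 2917 bp with scores of 6.10 and 6.53, and both its peaks had a mitotic peak. Neighbours were often unlike in this respect. In 9 groups all peaks had a mitotic peak, in 4 none had, and in 11, the most frequent kind, some had and some had not. Whether neighbours were more alike than other peaks was not tested.

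Peaks in such groups and peaks outside them had near-equal shares with a mitotic peak. In groups 30 of 53 were shared (56.6%, exact Clopper-Pearson 95% interval 42.3 to 70.2%), and outside them 92 of 162 (56.8%, 48.8 to 64.5%). The median total score was 5.95 in groups and 5.78 outside. Isolated sites, more than 100 kb from their neighbours on both sides, numbered 19, and 14 of them were shared (73.7%, 48.8 to 90.9%). The other 196 peaks had a share of 55.1% (47.9 to 62.2%), and the intervals overlap. The median score of the isolated sites was 6.66 (95% interval 4.94 to 10.8) against 5.71 (5.29 to 6.10), and the strongest site of the arm was one of them.

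**Figure D2:**
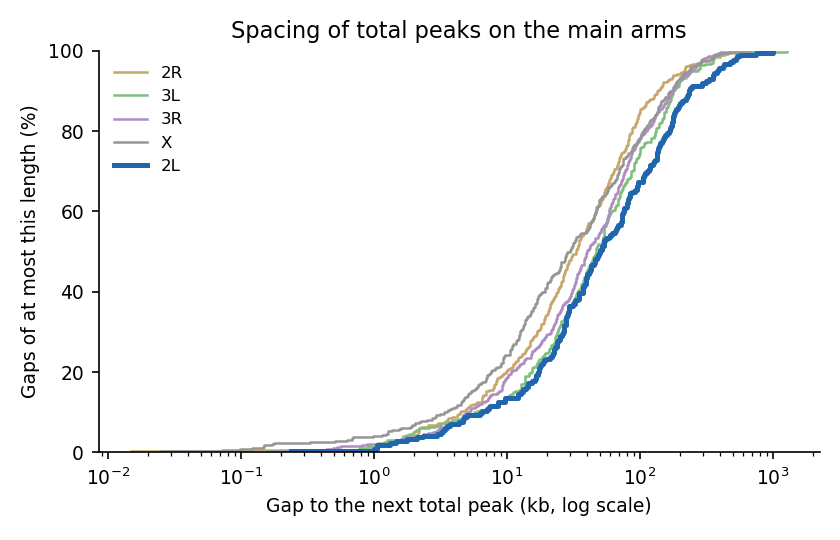
Cumulative share of gaps between neighbouring total peaks (vertical axis, percent) up to a given length (horizontal axis, kb, log scale) for 2L and the other main arms, 1 line per arm. The 2L line reaches 50% at 50.3 kb, and 6 of its gaps exceed 500 kb; the longest gap of all, 1278 kb, is on the 3L line.

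The strongest site of the arm in the total list lay at 14705903 to 14706931, with a score of 16.78. It ranked only 16th among the mitotic peaks of the arm, with a mitotic score of 18.14. The peaks at 19008814 to 19009921 and 19887127 to 19888190 followed with a total score of 15.73 each. Their mitotic scores were 25.19 and 29.51, the highest pair of mitotic scores on 2L. The peak at 7534547 to 7535652 had scores of 15.41 and 23.42 in the total and mitotic lists. These 4 sites lay in windows 2, 3 and 4. The one at 19887127 to 19888190 lay close to window 5, which begins at 20000001 and holds the site that ranked 5th.

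The rest of the 10 strongest were also spread along the arm. The peak at 20120493 to 20121547 (total score 15.23, mitotic 20.81) was the strongest of the centromere-near window. The peak at 18151918 to 18153088 had scores of 14.87 and 20.26, and the one at 11516672 to 11517828 had 14.11 and 22.28. The peak at 15498439 to 15499527 had 14.05 and 19.23. The peak at 17962709 to 17963822 had 13.96 and 22.09. The last of the 10, at 1006106 to 1007307 (13.25 and 23.52), was the strongest of the telomere-near window. All 10 had a mitotic peak, and 8 of them were also among the 10 highest mitotic scores of the arm. Window 4 held 5 of these 10 sites.

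The outermost sites were both shared. The peak nearest the telomere lay at 71881 to 74118, with scores of 11.28 and 19.25, and its mitotic peak was the widest mitotic peak of the arm at 2064 bp. The peak nearest the centromere lay at 22353712 to 22354763, with scores of 7.62 and 10.37. The widest total peak, 2523 bp, lay at 5979758 to 5982280 (score 6.88) and was shared, while the narrowest, 717 bp, at 3131606 to 3132322 (score 4.68), was not. The narrowest mitotic peak had 584 bp, at 12424435 to 12425018 (mitotic score 8.95). Median width was 1010 bp in the total list (quartiles 952.5 and 1108 bp) and 931 bp in the mitotic list (817 and 1024.5 bp).

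Of the 215 total peaks 122 had a mitotic peak (56.7%, Clopper-Pearson interval 49.8 to 63.5%) and 93 did not. Over all sequences the share was 56.1%, so 2L lay near the background of the series. In the other direction, 122 of 123 mitotic peaks lay on a total peak (99.2%, 95.6 to 99.98%), against 98.1% over all sequences. Whether the reads behind the total list include the mitotic reads is not stated, and this bears on every value that relates the lists.

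Sharing followed the score of the site. The median score was 7.05 among shared total peaks (95% interval 6.59 to 7.60) and 4.45 among total-only peaks (4.25 to 4.72), and the intervals do not overlap. Shared peaks were also wider, with a median of 1042.5 bp (1025 to 1067 bp) against 964 bp (956 to 980 bp). Score and width were themselves weakly related over the 215 peaks, with a Spearman rho of 0.28 and a Pearson r of 0.08, a description across peaks that share their libraries. All 65 peaks with a score above 6.91 were shared, and none of the 12 peaks with a score below 3.25 was. Both limits were read from the sharing of these same peaks. Between these limits both kinds were found, with 57 of 138 peaks shared (41.3%, 33.0 to 49.99%).

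The strongest site without a mitotic peak, at 7998376 to 7999256, had the score of 6.91 that sets the upper limit. It stood apart from its neighbours, 112 kb after one and 240 kb before the next. The next strongest such sites lay at 6050285 to 6051336 and 6722824 to 6723887, with a score of 6.42 each. The peaks at 18454102 to 18455058 (score 6.27) and 2998759 to 2999739 (score 6.21) followed. At the other end, the weakest site with a mitotic peak lay at 870445 to 872136, with a total score of 3.25 and a mitotic score of 5.10, the lowest mitotic score of the arm. The peaks at 5365597 to 5366547, 12133073 to 12134019, 20074967 to 20076231 and 13215439 to 13216458 were next, with total scores of 4.22 to 4.34 and mitotic scores of 5.71 to 8.19. The weakest total peak of the arm, at 1678886 to 1680600 with a score of 1.91, was not shared and bordered the gap of 528 kb.

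**Figure D3:**
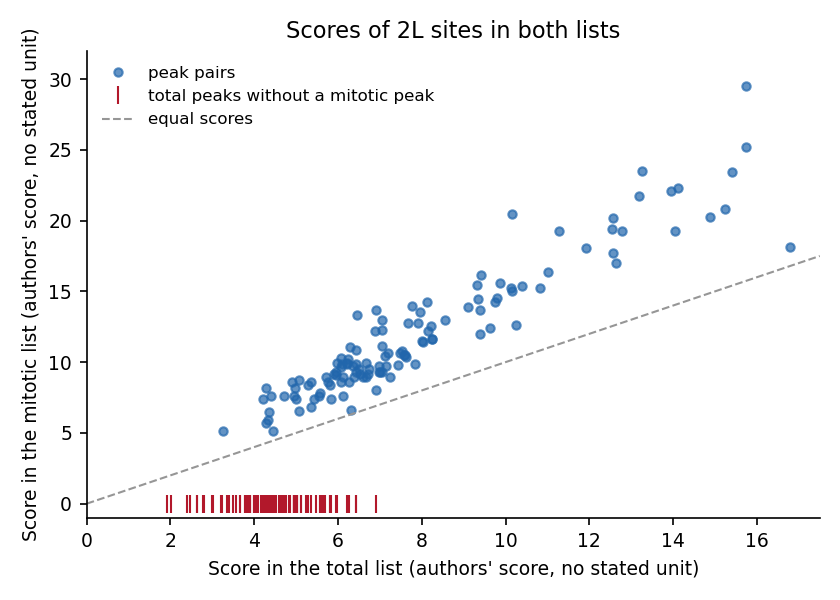
Score in the mitotic list (vertical axis) against score in the total list (horizontal axis) for the 122 overlapping pairs of 2L (blue points), with red ticks at 0 for the 93 total peaks without a mitotic peak and a dashed line of equal scores. All pairs lie above the line, the ticks end at 6.91, and the point nearest the right edge is the site with a total score of 16.78. Pairs with a total score below 5.10, the lowest mitotic score of the arm, could only lie above the line.

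In 5 classes of 2L peaks by total score, each with 42 to 44 peaks, the shared share rose from class to class. It was 4 of 43 in the weakest class (9.30%, 2.59 to 22.1%, scores 1.91 to 4.28) and 11 of 44 in class 2 (25%, 13.2 to 40.3%). It was 24 of 42 in the middle class (57.1%, 41.0 to 72.3%, scores 5.23 to 6.27) and 40 of 43 in class 4 (93.0%, 80.9 to 98.5%). In the strongest class, with scores from 8.01, 43 of 43 were shared. The Clopper-Pearson interval of this share was 91.8 to 100%. By the other limit used for a count of 0, 3 counts of the total, up to 6.98% of such peaks could lack a mitotic partner. Both hold counting error alone.

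The other main arms (2R, 3L, 3R and X), divided at the same scores, gave shares of 13.3, 29.1, 57.5, 93.2 and 99.4%. The difference of 2L from these ranged from -4.06 to 0.63 percentage points. In the weakest class it was -3.97 points (95% Newcombe interval -11.0 to 8.78) and in the middle class -0.37 points (-16.4 to 14.6). Over all scores 57.4% of the peaks of the other arms were shared, a difference of -0.67 points for 2L (-7.83 to 6.29). All of these intervals include 0. Between scores of 3.25 and 6.91 the other arms shared 346 of 862 peaks (40.1%, 36.8 to 43.5%), beside 41.3% on 2L. Both limits were set by the sharing on 2L itself, so these shares are no matched comparison of the arms. Above 6.91, a limit set by the strongest total-only peak of 2L itself, the other arms had 8 total-only peaks among 456, the strongest with a score of 8.27; since 2L set the limit, this is no comparison with it.

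Along the arm the share with a mitotic peak was highest in window 2 and lowest near the centromere. From telomere to centromere it was 30 of 52 (57.7%, 43.2 to 71.3%), 31 of 48 (64.6%, 49.5 to 77.8%), 19 of 34 (55.9%, 37.9 to 72.8%), 30 of 52 (57.7%) and 12 of 29 (41.4%, 23.5 to 61.1%). The last window differed from the first by -16.3 percentage points (Newcombe interval -36.5 to 6.09), an interval that includes 0. Median total scores were also highest in window 2 and lowest in window 5, at 5.83, 6.28, 5.19, 6.07 and 4.39. The centromere-near window held 12 of the peaks of the weakest score class, more than any other window, and 5 of the strongest. If each score class had its share for the whole arm, the windows would have had 55.0, 66.2, 50.7, 59.5 and 46.5% shared. The measured shares differed from these values by 1.61 to 5.20 points. The peaks of each window also entered the class shares, which by itself draws the values together. Whether score accounts for the order of the windows was not tested.

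**Figure D4:**
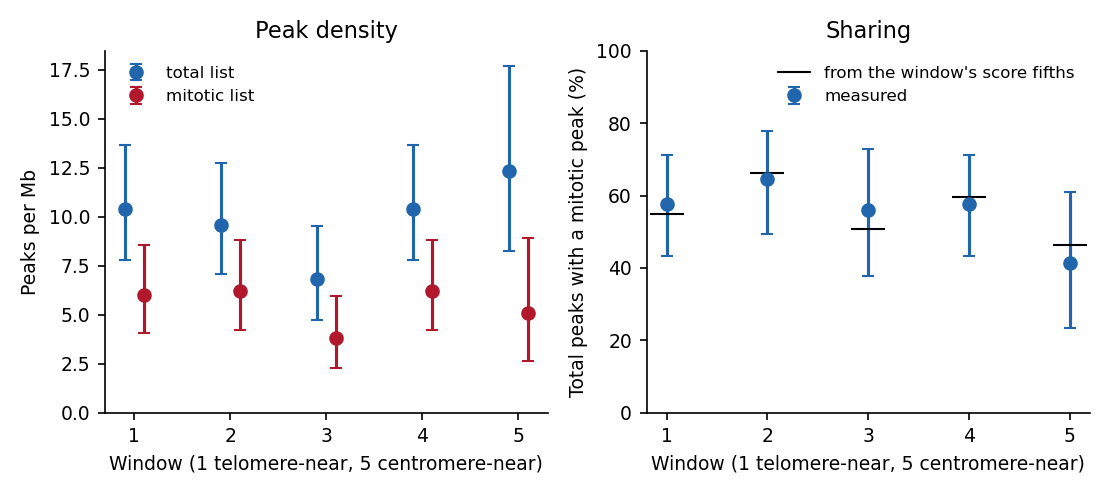
Peaks per Mb (left, with exact Poisson 95% intervals) and share of total peaks with a mitotic peak (right, percent, with Clopper-Pearson 95% intervals) in 5 windows of 2L from telomere (1) to centromere (5). Black dashes give the share that the score classes of each window would have at their shares for the whole arm; density is lowest in window 3 and the share lowest, at 41.4%, in window 5.

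Full 1-Mb bins held 3 to 21 total peaks, too few to place high or low shares, and the bins named here are examples. Over the whole arm 56.7% of the total peaks were shared. In the bins at 20000001 to 21000000 and 21000001 to 22000000 there were 6 of 16 and 4 of 10 total peaks with a mitotic peak, at median scores of 4.32 and 4.45. At the telomere-near end 13 of 21 were shared, at a median score of 5.84. The bin at 10000001 to 11000000 had 1 of 6 shared, at a median score of 4.855. The bin at 14000001 to 15000000, which holds the strongest site of the arm, had 6 of 7, at 6.12. Low shares were also seen at 9000001 to 10000000 (1 of 3, median score 4.60) and 17000001 to 18000000 (2 of 6, 5.32). The bin at 5000001 to 6000000 had 7 of 9, at 6.43. The bin at 13000001 to 14000000 had 4 of 7, at a low median score of 4.72.

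In the 122 pairs the mitotic peak always lay on or within the borders of its total peak, and no peak had more than 1 partner. The starts were identical in 17 pairs (13.9%), the ends in 18 (14.8%) and both in 2. The mitotic peak had a median of 87.8% of the width of its total peak, and the centres lay a median of 27 bp apart, at most 284.5 bp.

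In all 122 pairs the mitotic peak had the higher score, with no common scale stated for the lists. No mitotic peak of 2L scored below 5.10, so for pairs with a total score under that value this was fixed in advance. The ratio of the mitotic to the total score had a median of 1.49 (95% interval 1.46 to 1.53), with a range from 1.05 to 2.06. On the other main arms it was 1.498 (1.48 to 1.51) over 794 shared peaks. The scores rose together across the pairs of 2L (Pearson r 0.94, Spearman rho 0.93, n = 122), a description across peaks of the same libraries, for which any common reads would raise the coefficients. The ratio itself had no relation to the total score that could be seen (rho -0.03, r -0.02).

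Some sites stood off the median ratio of 1.49. The strongest site of the total list, at 14705903 to 14706931, had a ratio of 1.08, the second lowest of the 122. The lowest, 1.05, belonged to the peak at 15113006 to 15113920 (scores 6.30 and 6.61), and the peak at 250383 to 251577, near the telomere (4.45 and 5.12), had 1.15. The peak at 15057539 to 15058509 (6.91 and 8) followed with 1.16, although its neighbour at 15060281 to 15061401 had a ratio of 1.70. The highest ratios were 2.06 at 540146 to 541649 (6.46 and 13.31) and 2.02 at 489655 to 491293 (10.15 and 20.47). The next, 1.98, lay at 16815627 to 16816757, at the telomere side of the gap of 567 kb. By window the median ratio was 1.55 (1.48 to 1.66), 1.52 (1.46 to 1.58), 1.47 (1.34 to 1.61), 1.41 (1.36 to 1.55) and 1.39 (1.36 to 1.56) from telomere to centromere, with overlapping intervals. The sites with extreme ratios were chosen after their values were seen.

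The only mitotic-only peak of the arm lay at 16487410 to 16488108, with a mitotic score of 8.19 and a width of 699 bp. There were 19 mitotic peaks of 2L with a lower score. Its nearest total peak began 2807 bp beyond its centromere-near border, scored 4.39 and had no mitotic peak of its own. On the other side the nearest total peak was 134219 bp away.

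With 9.62 total peaks per Mb of covered length (exact Poisson 95% interval 8.37 to 11.0) 2L was the sparsest of the main arms, which is how the arm came to be chosen and is given as a description. The other arms together had 14.4 per Mb (13.7 to 15.2), and their values ran from 12.3 (3L, 11.0 to 13.8) to 16.3 (2R, 14.6 to 18.1). The interval of 3L just touches that of 2L. For mitotic peaks 2L had 5.50 per Mb (4.57 to 6.56), 3L had 6.50 (5.53 to 7.59), and the other arms together had 8.41 (7.84 to 9.01). The ratio of 2L to the other arms was 0.67 for total and 0.65 for mitotic peaks. No test was made of these densities, since peaks and bins are not replicates.

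The lower density of 2L was seen among strong as well as weak peaks. Divided at the scores that cut 2L into its 5 classes, the ratio of its density to that of the other arms was 0.60 in the weakest class, then 0.71, 0.66 and 0.83, and 0.59 in the strongest. In the strongest class 2L had 1.92 peaks per Mb (1.39 to 2.59) and the other arms had 3.29 (2.93 to 3.67). In the weakest class the values were 1.92 and 3.22 (2.87 to 3.604). In class 4, with scores of 6.29 to 7.95, they were 1.92 and 2.31 (2.01 to 2.63). The intervals of 2L and the other arms overlapped in classes 2, 3 and 4 and not in the weakest and strongest. The arm was chosen for its low density, so these ratios and intervals only divide that known value and are given as a description. The highest score of 2L, 16.78, was exceeded by 29 of the 1383 peaks of the other arms (2.10%), which places this site among them and is no comparison of the arms. The median score of 2L, 5.81 (5.35 to 6.13), was equal to that of X and close to the 5.58 of the other arms together.

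**Figure D5:**
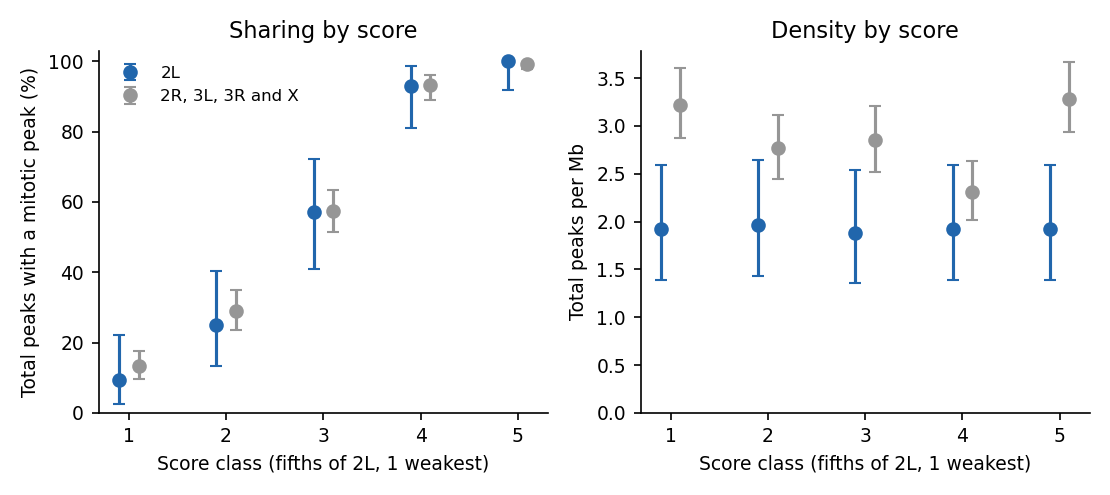
Share of total peaks with a mitotic peak (left, percent, Clopper-Pearson 95% intervals) and total peaks per Mb (right, exact Poisson 95% intervals) in 5 score classes that split the 2L peaks into near-equal numbers, for 2L (blue) and the other main arms (grey). Shares nearly coincide in each class, while the density of 2L lies at 1.88 to 1.97 per Mb and that of the other arms at 2.31 to 3.29.

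2L had 6 gaps over 500 kb between total peaks, while 2R had 2, 3L and X had 1 each and 3R had 0. Gaps over 200 kb were as many on 3R as on 2L, 29 each, with 24 on X, 23 on 3L and 20 on 2R. They took up 48.9% of the covered length of 2L, against 29.2 to 32.4% of the other arms. Of 223 tiles of 100 kb on 2L 96 held no total peak (43.0%), and on the other arms 28.4 to 34.4% were empty. The longest gap of all was on 3L, however, at 1278 kb. Close neighbours were about as frequent on 2L as on 3L, with 13.6% and 13.3% of gaps under 10 kb, and more frequent on 3R (18.7%), 2R (20.2%) and X (24.3%). The median gap of 2L, 50.3 kb (39.6 to 72.0), overlapped in its interval with those of 3L (39.1 to 54.2), 3R (35.0 to 50.9), X (23.4 to 40.9) and, at its edge, 2R (26.9 to 39.6). Gap lengths, close neighbours and empty tiles all depend on peak density, and 2L was chosen for its low density. The values are therefore given as a description. Whether any of them goes beyond the low density was not tested.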

How the data were processed

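DREF was profiled by ChIP-seq in Kc167 cells. Per the submitters' processing notes, Bowtie 0.12.5 was the aligner. The caller of the peaks, its threshold, the genome build and any pooling of libraries were not given in the sources used here, and input controls were not used here. The authors deposited 1 list per condition with a sequence name, start, end and score per peak, and the unit of this deposited score is not stated.

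From the lists, peaks were matched by an overlap of at least 1 bp and placed in bins, windows and classes by their centres and scores. The arm was taken to end at the last peak end of either list. Shares have exact Clopper-Pearson 95% intervals, counts exact Poisson intervals, differences of shares Newcombe intervals and medians intervals from binomial ranks. All hold counting error alone and take peaks as independent. For a count of 0 the limit was 3 counts of the total. No p-value was computed. Depth per library is unknown.

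The members and measures were chosen with earlier results of these data known. Named were, on 2L, the 10 highest total scores, the 5 highest total-only and 5 lowest shared scores, the strongest peak of each window, the outermost, widest and narrowest peaks, the mitotic-only peak, and the 5 longest gaps and 5 largest groups of neighbours, ties by span. Overlap, gap and interval functions were tested on simulated data. Tools were Python 3.11.15, matplotlib 3.10.9, scipy 1.17.1, pandas 2.3.3 and numpy 2.4.6.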

Additional observations from a re-analysis of the deposited data

How the results depend on the processing

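Of 24 alternative values for 10 results, 20 stayed within the 95% interval of the main value, or within 1.5 times of a count, and 4 did not. Several of the 20 could not have moved, so the tally is no measure of robustness. The mean density in bins of another size used the same peaks over the same length. No peak had more than 1 partner, so a limit to such pairs repeated the main ratio. The count of mitotic-only peaks restated the share of mitotic peaks on a total peak. With the stronger 50% of each whole list, the share of 2L mitotic peaks on a total peak was 100%, the density was 5.05 total peaks per Mb and the median gap was 132 kb; fewer peaks enter there by construction. With means in place of medians, the score difference between shared and total-only peaks was 3.50 in place of 2.60. The definition of overlap changed no count on 2L. The difference in sharing between the ends of the arm was -9.30 points with parts of equal peak number and -3.19 points between the telomere-near and centromere-near 50% of the arm. A division of the arm into 3 score classes was added after seeing the values. No paired analysis was possible because the lists hold no values for single libraries, and for that reason no replicate could be left out. Depth was not measured, so a site missing from the mitotic list cannot be told apart from one below its detection limit.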
